A study of Mus musculus with 16 samples.

Results

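The 36 genes described here carry glucose from uptake to the mitochondrial fate of pyruvate: glucose transporters, hexokinases, the glycolytic enzymes, lactate dehydrogenases, monocarboxylate transporters, the entry of pyruvate into mitochondria, its gatekeeping kinases, and the entry into the pentose phosphate pathway. They were chosen by symbol, and their Ensembl identifiers were matched to symbols in the GENCODE M21 annotation. All 36 were found among the 19449 genes of the count table, and all 36 passed the filter on low counts that left 16269 genes for testing. Hippocampal RNA of mice aged 3 months was sequenced in 16 libraries, 4 per group. The groups were wild type injected with PBS, wild type injected with LPS (lipopolysaccharide, the bacterial envelope molecule that triggers inflammation), and Tspo knockout (KO) mice injected with PBS or with LPS. Tspo encodes the translocator protein of the outer mitochondrial membrane, and the series asks what its deletion changes in the hippocampus during inflammation. The labels give no LPS dose, route or interval before tissue was taken, and do not describe the knockout construct or the strain. Whether replicates are separate animals is not stated, so p-values measure only the spread between these libraries, which may in part be technical, and n counts libraries.

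Library totals ran from 30198619 to 50009041 counts. Libraries that stood apart touch every result below. Wild-type LPS replicate 1 held Lcn2, an acute inflammatory gene, at 0.641 CPM (read counts scaled to library size) against 209 to 238 CPM in the other 3 wild-type LPS libraries, and a list of 10 inflammatory genes summed there to 18.1 CPM against 437 to 504. In the knockout LPS libraries the same list summed to 11.4 to 17.5 CPM, beside 11.7 to 16.7 CPM in the PBS libraries, so no library labelled knockout LPS showed the inflammatory signature. The library labelled knockout PBS replicate 1 held Tspo at 2.33 CPM, a wild-type level (2.06 to 5.17 CPM with PBS), whereas the other 7 knockout libraries held 0.152 to 0.486 CPM. Y-linked transcripts were present in 6 libraries and absent from the other 10, and wild-type LPS replicate 1 is the only library of its group that has them. The summed neuronal markers (Rbfox3, Syt1, Snap25 and 5 others) ran from 6509 to 7925 CPM over all 16 libraries. Sample titles also hold a code that the labels do not explain. Replicates 1 to 3 of wild-type PBS share a code, and replicates 2 to 4 of wild-type LPS share another, so code and treatment cannot be told apart in most of that comparison. The latter code is also held by knockout PBS replicate 4. Wild-type PBS replicate 4 and wild-type LPS replicate 1 share a further code, and are the only wild-type libraries with Y-linked transcripts. Choroid plexus markers were at 14.5 CPM in wild-type PBS replicate 1 and 16.1 CPM in wild-type LPS replicate 1, against 576 to 3456 CPM elsewhere.

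Glycolysis splits glucose into pyruvate, yielding ATP and NADH. Pyruvate is either reduced to lactate, which leaves or enters cells through monocarboxylate transporters, or imported into mitochondria and oxidised by the pyruvate dehydrogenase complex, which pyruvate dehydrogenase kinases switch off by phosphorylation. In brain, glia and endothelium are known to handle glucose and lactate differently from neurons, and innate immune cells activated by LPS are known to raise glycolysis, so the mixture of cells in a tissue sample bears on every level given here.

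Per kilobase of exon, the members spanned about 3 orders of magnitude. Aldoa, an aldolase, stood highest at 550 CPM per kb (mean of the 4 group means), followed by Gapdh (glyceraldehyde-3-phosphate dehydrogenase) at 458 and Pkm, which encodes pyruvate kinase, at 233 CPM per kb. At the bottom were Hk2 at 1.06, Slc16a3 at 0.519 and Hk3 at 0.445 CPM per kb. The highest 3 and lowest 3 kept their ranks when the longest transcript replaced the exon union as the length, while Eno1 moved from rank 10 to rank 4. Within families, Hk1 made up 97.7% ± 0.238 (SD, n = 4) of the hexokinase level per kb in wild-type PBS. Ldhb, the lactate dehydrogenase subunit typical of oxidative cells, made up 75.2% ± 3.76 of the lactate dehydrogenase level. Such shares use the exon union and depend on that length. With the longest transcript, Ldha and Ldhb stood at 119 and 240 CPM per kb in wild-type PBS, against 65.0 and 199 with the exon union. Pdk2 made up 61.8% ± 3.13 of the pyruvate dehydrogenase kinase level, and Slc16a1 made up 74.7% ± 1.54 of the level of the 3 monocarboxylate transporter genes. Hk2, Hk3 and Pdk4, the called members with the largest fold changes, ranked 34, 36 and 31 of 36 by level.

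**Figure D1:**
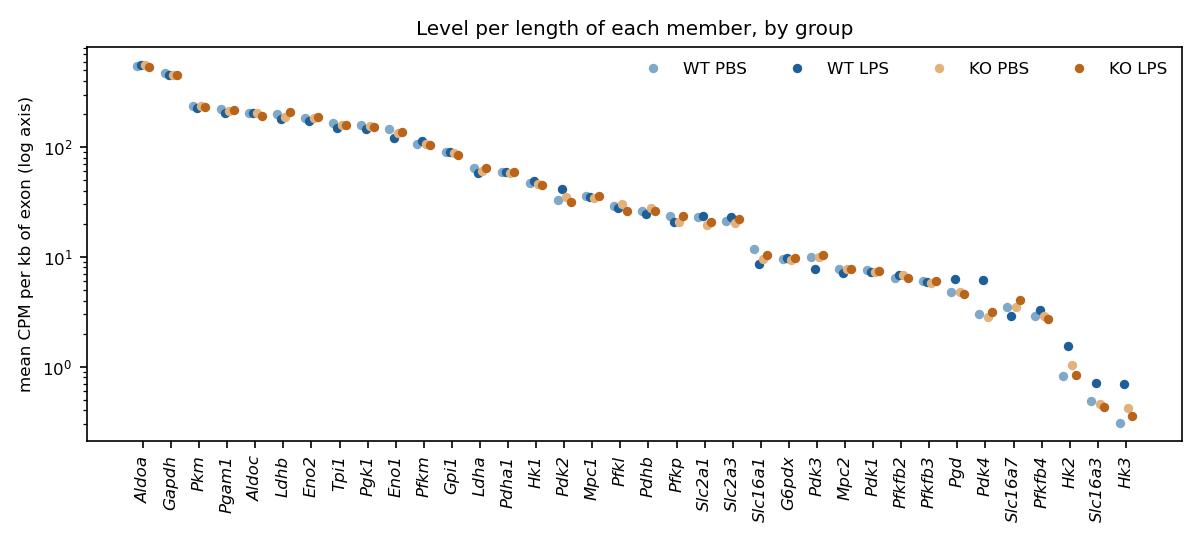
Mean CPM per kb of exon union on a log axis for each of the 36 members, with 1 point per group of 4 libraries and genes ordered by their mean over groups. Aldoa (550) and Gapdh (458) stand highest, and Hk2, Slc16a3 and Hk3, at the lower end, have their highest point in wild-type LPS.

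In wild type, 8 of the 36 members changed after LPS (edgeR quasi-likelihood test, Benjamini-Hochberg adjusted p under 0.05 over 16269 genes). Hk2, Hk3, Pdk2, Pdk4 and Pgd rose, and Slc16a1, Pdk3 and Eno1 fell. These were 22.2% of the members, and over all genes 4.72% were called higher and 3.85% lower. At an unadjusted p under 0.05 the members counted 11 of 36, against 24.4% of all genes, and their median log2 fold change was -0.02, against 0.00 over all genes. Between genotypes under LPS, 1 member (Pdk3) was higher in the knockout and 5 (Hk2, Hk3, Pdk2, Pdk4 and Pgd) were lower, against 4.61% higher and 7.28% lower over all genes. This second comparison shares the 4 wild-type LPS libraries with the first, so opposite signs in both are not separate evidence. No knockout LPS library showed the inflammatory signature, whereas most wild-type LPS libraries did. Genotype and the presence of the signature therefore cannot be told apart in this comparison. The groups did not overlap in 5 members in the first comparison (Pgd higher; Slc16a1, Pdk3, Eno1 and Pgk1 lower) against 8.62% of all genes. In the second they did not overlap in 6 (Slc16a1 and Pdk3 higher in the knockout; Pgd, Pdk2, Gpi1 and Hk1 lower) against 14.3% of all genes.

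These counts depended on single libraries. In the wild-type comparison, 15 members passed without wild-type LPS replicate 1, but 2 without LPS replicate 3, 4 without LPS replicate 2, 5 without LPS replicate 4, 4 without PBS replicate 2 and 3 without PBS replicate 3. The calls over all 16269 genes, 1394 with every library, were in the same order 3380, 538, 758, 694, 625 and 621, and a fit of only the 8 libraries compared called 0 members and 0 of all genes. Between genotypes under LPS, 13 members passed without wild-type LPS replicate 1, 3 each without wild-type LPS replicate 2, wild-type LPS replicate 3 or knockout LPS replicate 2, and 2 (Pdk3 and Pgd) in a fit of only those 8 libraries. Over all genes these fits called 4005, 1088, 858, 1273 and 438, against 1935 with every library. Wild-type PBS replicates 2 and 3 were the closest pair of libraries within a group (chi-square per gene 3.78, against 12.3 for the next pair). This measure takes reads as independent, so it cannot tell 2 animals from 2 preparations of the same RNA. In the main fit they were counted as 2 libraries. With their counts summed into 1 library, 4 members passed after LPS in wild type (Slc16a1, Pdk3, Hk3 and Pgd), and Hk2, Pdk4, Pdk2 and Eno1 did not. The all-gene calls of the interaction between genotype and LPS then went from 187 to 0. The members added in the wild-type comparison by leaving out LPS replicate 1 were Pgam1, Slc16a7, Pfkp, Tpi1, Mpc2, Pgk1 and Ldha, and all 7 were lower after LPS, with log2 fold changes from -0.16 (Pgam1) to -0.53 (Slc16a7).

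**Figure D2:**
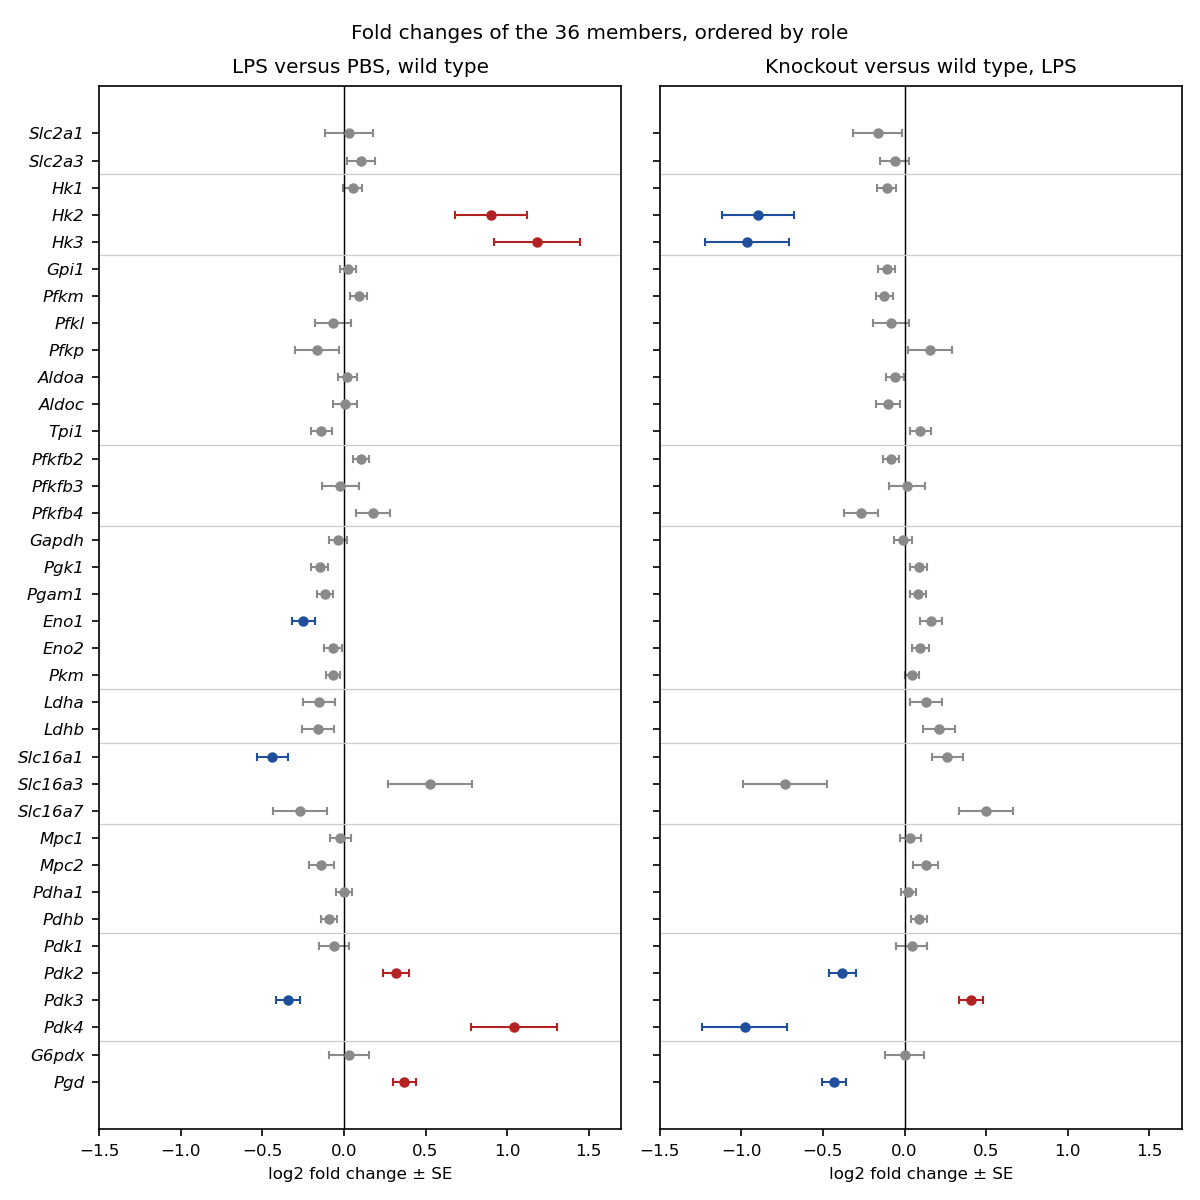
Log2 fold change ± SE of each member, ordered by role, for LPS versus PBS in wild type (left) and knockout versus wild type under LPS (right); red marks members called higher, blue called lower and grey not called. Both panels use the same 4 wild-type LPS libraries, and of the glycolytic trunk Eno1 alone is coloured, in the left panel (-0.25).

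To show what the members that changed have upstream of their start sites, promoter sequences from RefSeq (GRCm38.p6, 250 bases before the annotated start) were searched on both strands for ACGTG, the core of the sites bound by hypoxia-inducible factors, and for CACGTG, the E-box letters bound by factors such as MYC. Every CACGTG also contains ACGTG. Of the 34 members with a promoter in the table, 16 (47.1%) held ACGTG, against 18.5% of 27025 genes, and 6 (17.6%) held CACGTG, against 6.86%. A gene counted when any of its promoters held the letters. The members had 52 promoters, of which 42 were found near the 5′ end of an annotated transcript. The 27025 genes include genes not tested here and were not matched for number of promoters or level. The shares are therefore a description, and enrichment was not tested. The 5 windows below are printed because they belong to members that passed the test, read 5′ to 3′ on the strand of the gene, with the motif in capitals. They lie at chr6:82774484-82774524 (Hk2), chr13:55021519-55021559 (Hk3), chr11:95041474-95041515 (Pdk2), chrX:93832181-93832221 (Pdk3) and chr3:104638446-104638487 (Slc16a1). The motif begins 52 bases before the start in Hk2, 156 in Hk3, 126 in Pdk2, 53 in Pdk3 and 200 in Slc16a1. Hk2 holds ACGTG a second time, 226 bases before the start, and the site nearest the start is printed.
Hk2: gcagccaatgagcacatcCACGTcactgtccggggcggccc
Hk3: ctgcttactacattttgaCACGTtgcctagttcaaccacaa
Pdk2: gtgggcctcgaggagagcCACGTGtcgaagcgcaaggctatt
Pdk3: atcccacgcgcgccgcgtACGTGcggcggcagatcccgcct
Slc16a1: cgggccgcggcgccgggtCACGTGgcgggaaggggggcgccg
Hk2 and Hk3 hold the ACGTG letters on the opposite strand, Pdk3 on the strand shown, and Pdk2 and Slc16a1 hold the palindromic E-box. Among these 5, the transcripts of Hk2, Hk3 and Pdk2 rose after LPS in wild type and those of Pdk3 and Slc16a1 fell, so the letters occurred on members of both directions. Neither motif was found in the windows of Pgd, Pdk4 and Eno1, the other 3 members called, and 11 of the 26 members with a promoter that were not called held ACGTG.

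Hexokinases trap glucose in the cell by phosphorylating it. Hk2 encodes the inducible isozyme (ENSMUSG00000000628, chromosome 6, 82725025 to 82774454, minus strand). It stood at 4.90, 5.22, 3.95 and 5.70 CPM in wild-type PBS (replicates 1 to 4) and at 4.86, 11.5, 10.6 and 9.98 CPM in wild-type LPS. Knockout PBS libraries held 5.55, 7.10, 5.68 and 6.31 CPM, and knockout LPS libraries 5.84, 4.53, 5.65 and 3.85 CPM. The other 3 wild-type LPS libraries were higher than every other library, and replicate 1 lay within the PBS range. Hk2 rose 1.87-fold after LPS in wild type (log2 fold change 0.90 ± 0.22, SE; adjusted p = 0.0213) and was 1.86-fold lower in the knockout under LPS (adjusted p = 0.0184). Without wild-type LPS replicate 1 the wild-type log2 fold change was 1.11 (adjusted p = 0.00013). The wild-type call was lost without PBS replicate 2 or 3 or LPS replicate 2, 3 or 4 (log2 fold changes 0.78 to 0.94), and the call between genotypes without wild-type LPS replicate 2, 3 or 4 or knockout LPS replicate 2 or 4.

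Hk3, the hexokinase of myeloid blood cells (ENSMUSG00000025877, chromosome 13, 55005985 to 55021385, minus strand), was measured at 30 to 157 counts per library. Wild-type PBS libraries held 1.31, 1.27, 0.996 and 0.959 CPM, and wild-type LPS libraries 1.22, 3.14, 3.35 and 2.56 CPM. Knockout libraries held 1.66, 1.40, 1.71 and 1.41 CPM with PBS and 1.51, 1.19, 1.54 and 1.01 CPM with LPS. The pattern is that of Hk2: wild-type LPS replicates 2, 3 and 4 exceed all other libraries and replicate 1 does not. Hk3 rose 2.27-fold in wild type (log2 fold change 1.18 ± 0.26; adjusted p = 0.0136) and was 1.96-fold lower in the knockout under LPS (adjusted p = 0.0261). The wild-type call was lost without LPS replicate 3 (adjusted p = 0.0514), and the call between genotypes without wild-type LPS replicate 2, 3 or 4 or knockout LPS replicate 2 or 4, or with sex as a covariate (adjusted p = 0.0526). Hk1, the constitutive brain isozyme, did not pass (log2 fold change 0.05, 95% interval -0.06 to 0.17), and its share of the hexokinase level was 95.6% ± 1.44 in wild-type LPS.

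Markers of blood leukocytes moved with these genes. Of the 10 listed, 9 were in the table and 7 were tested. In wild type 5 rose after LPS (S100a8, S100a9, Ngp, Lyz2 and Itgal), where 4.72% of all genes were called higher. The sum of the 9 markers was 6.54 to 9.34 CPM in wild-type PBS, then 9.10, 25.8, 20.4 and 27.6 CPM in wild-type LPS. In the knockout it ran from 6.19 to 8.50 CPM over both treatments. The microglial list, with none of its 8 markers at 0 in any library, summed to 263 to 316 CPM in wild-type PBS and to 260, 409, 347 and 341 CPM in wild-type LPS; Ctss rose and P2ry12 fell. The part of leukocytes and microglia in the rise of Hk2 and Hk3 was not tested, and in bulk tissue more cells of a type and more RNA per cell cannot be told apart.

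**Figure D3:**
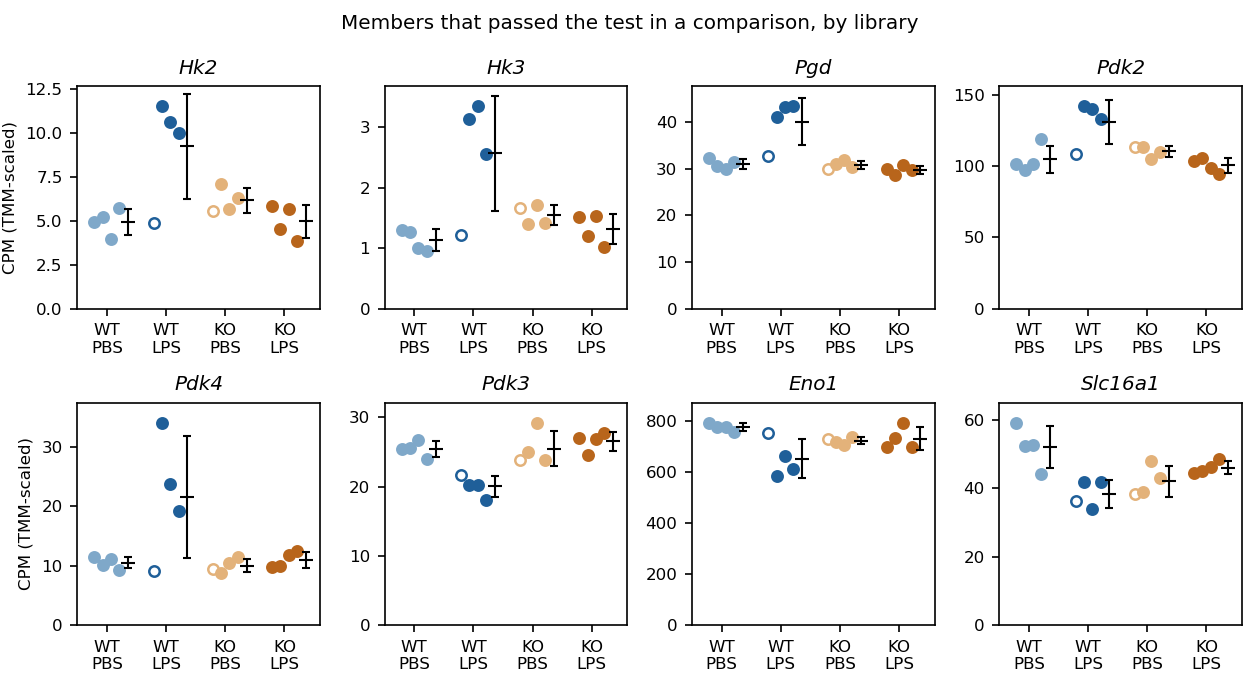
TMM-scaled CPM of the 8 members that passed the test, 1 point per library, with black bars for mean ± SD of the 4 libraries of a group; open circles are wild-type LPS replicate 1 and knockout PBS replicate 1. For Hk2, Hk3, Pgd, Pdk2 and Pdk4 the other 3 wild-type LPS libraries lie above all remaining libraries, and for Pdk3 the 4 wild-type LPS libraries are the lowest.

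Pyruvate dehydrogenase kinases phosphorylate the E1 alpha subunit of pyruvate dehydrogenase, encoded by Pdha1, and so divert pyruvate from oxidation. Their 4 genes moved in different directions after LPS in wild type: Pdk2 and Pdk4 rose, Pdk3 fell, and Pdk1 did not pass (log2 fold change -0.06, adjusted p = 0.739). Pdk4, the starvation- and glucocorticoid-responsive kinase (ENSMUSG00000019577, chromosome 6, 5483351 to 5496309, minus strand), stood at 11.5, 10.1, 11.1 and 9.29 CPM in wild-type PBS and at 9.16, 34.0, 23.7 and 19.2 CPM in wild-type LPS. Knockout libraries held 9.42, 8.80, 10.4 and 11.4 CPM with PBS and 9.73, 9.95, 11.7 and 12.4 CPM with LPS. Wild-type LPS replicate 1 was below all 4 PBS libraries, whereas the other 3 were above every other library and spread widely. The gene rose 2.06-fold in wild type (log2 fold change 1.04 ± 0.26; adjusted p = 0.0249) and was 1.97-fold lower in the knockout under LPS (adjusted p = 0.0265). Without wild-type LPS replicate 2 these became 0.73 (adjusted p = 0.0818) and -0.67 (adjusted p = 0.0872) on the log2 scale. The first call was also lost without wild-type PBS replicate 2 or 3 or LPS replicate 3, and the second without wild-type LPS replicate 3 or knockout LPS replicate 1, 2 or 3, or with sex as a covariate (adjusted p = 0.0632).

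Pdk2, the main brain kinase of the family in these libraries (ENSMUSG00000038967, chromosome 11, 95026258 to 95041354, minus strand; its E-box window is printed above), stood at 102, 97.3, 102 and 119 CPM in wild-type PBS and at 109, 142, 140 and 133 CPM in wild-type LPS. Knockout PBS libraries held 113, 114, 105 and 110 CPM, and knockout LPS libraries 104, 106, 98.6 and 94.6 CPM. All 4 wild-type LPS libraries were above the 4 knockout LPS libraries. Pdk2 rose 1.25-fold in wild type (log2 fold change 0.32 ± 0.08; adjusted p = 0.0238), a call lost without PBS replicate 2 or 3 or LPS replicate 2, 3 or 4, and was 1.30-fold lower in the knockout under LPS (adjusted p = 0.00948), a call kept in all 16 fits that left out 1 library.

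Pdk3, an X-linked kinase gene (ENSMUSG00000035232, chromosome X, 93764607 to 93832201, minus strand), went the other way. Its values were 25.5, 25.5, 26.7 and 24.0 CPM in wild-type PBS and 21.7, 20.2, 20.3 and 18.04 CPM in wild-type LPS. Knockout libraries held 23.9, 25.1, 29.2 and 23.8 CPM with PBS and 27.1, 24.6, 26.9 and 27.7 CPM with LPS. The 4 wild-type LPS libraries were the lowest of the 16, replicate 1 included, although replicate 1 was the nearest to the rest. Pdk3 was 1.27-fold lower after LPS in wild type (log2 fold change -0.34 ± 0.07; adjusted p = 0.013), and this call was lost without PBS replicate 3 (adjusted p = 0.0518). It was 1.33-fold higher in the knockout under LPS (log2 fold change 0.41 ± 0.07; adjusted p = 0.0053), which held in all 28 other settings tried. With only the libraries lacking Y-linked transcripts, Pdk3 was called in both comparisons.

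The share of each gene in the summed transcript level of the 4 kinase genes, here called the pool, was described and not tested. Per kb, Pdk4 made up 5.59% ± 0.628 of the pool in wild-type PBS and 4.83%, 14.1%, 10.1% and 8.96% in the 4 wild-type LPS libraries. Pdk3 made up 18.5% ± 1.42 in PBS and 12.6% ± 2.03 in LPS. For Pdk2 the shares were 61.8% ± 3.13 in PBS and 66.1% ± 2.17 in LPS, with overlapping ranges (59.7% to 66.4% and 63.6% to 68.8%). In knockout LPS the shares were 60.3% for Pdk2, 19.7% for Pdk3, 14.1% for Pdk1 and 5.92% for Pdk4, beside 61.8%, 18.5%, 14.1% and 5.59% in wild-type PBS.

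**Figure D4:**
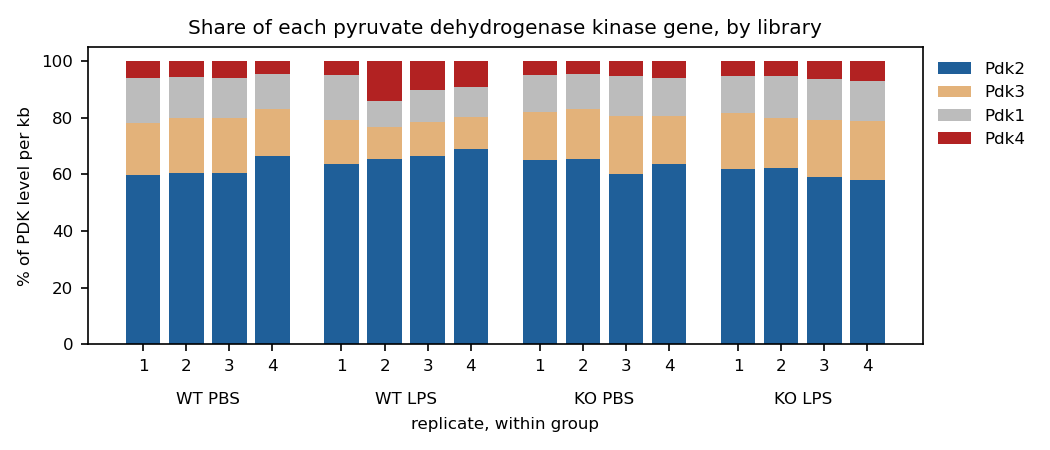
Share of each of the 4 pyruvate dehydrogenase kinase genes in their summed CPM per kb, 1 bar per library, with replicates 1 to 4 from left to right within each group. Pdk4 takes its largest shares (14.1%, 10.1% and 8.96%) in wild-type LPS replicates 2, 3 and 4, where Pdk3 takes its smallest.

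Pgd encodes phosphogluconate dehydrogenase, the second NADPH-producing step of the pentose phosphate pathway (ENSMUSG00000028961, chromosome 4, 149149991 to 149166771, minus strand). It had the smallest adjusted p of the members in both comparisons that called any. Wild-type PBS libraries held 32.4, 30.5, 29.9 and 31.4 CPM and wild-type LPS libraries 32.8, 41.1, 43.3 and 43.5 CPM. Knockout libraries held 29.9, 31.1, 31.9 and 30.5 CPM with PBS and 29.97, 28.7, 30.8 and 29.8 CPM with LPS. All wild-type LPS libraries lay above all wild-type PBS and all knockout LPS libraries, replicate 1 by a small margin. Pgd rose 1.29-fold in wild type (log2 fold change 0.37 ± 0.07; adjusted p = 0.00808) and was 1.35-fold lower in the knockout under LPS (log2 fold change -0.43 ± 0.07; adjusted p = 0.00381). Both calls were kept in all 16 fits that left out 1 library. G6pdx, the glucose-6-phosphate dehydrogenase that opens the pathway, did not pass in wild type (log2 fold change 0.03, 95% interval -0.21 to 0.27), with group means of 29.0 to 30.1 CPM.

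In the lower trunk, Eno1, the general enolase (ENSMUSG00000063524, chromosome 4, 150236721 to 150248879, plus strand), was the single member of 6 that passed. It stood at 795, 779, 778 and 759 CPM in wild-type PBS and at 754, 584, 666 and 612 CPM in wild-type LPS. Knockout libraries held 731, 718, 708 and 741 CPM with PBS and 698, 734, 795 and 700 CPM with LPS. The wild-type groups did not overlap, though replicate 1 of LPS (754 CPM) came close to replicate 4 of PBS (759 CPM). Eno1 was 1.19-fold lower after LPS (log2 fold change -0.25 ± 0.07; adjusted p = 0.038), a call lost when wild-type PBS replicate 1, 2 or 3, wild-type LPS replicate 2, 3 or 4, knockout PBS replicate 3 or knockout LPS replicate 2 was left out. Of its transcript words of 31 bases, 28.5% also occur in other genes, so its count can hold reads of copies. The largest sharer, Eno1b (27.7% of the words), was given 101 counts over all libraries, against 419075 for Eno1. The other 5 (Gapdh, Pgk1, Pgam1, Eno2 and Pkm) had log2 fold changes from -0.15 to -0.04 in wild type. Pgk1, the phosphoglycerate kinase, did not overlap between the groups (348 to 366 CPM in PBS, 311 to 342 CPM in LPS) yet did not pass (adjusted p = 0.092). Of its words 54.7% are shared, nearly all with Pgk1-rs7, which was given 366 counts over all libraries, against 200380 for Pgk1. For Gapdh, widely used as a reference gene, the 95% interval of the wild-type log2 difference was -0.14 to 0.07.

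Slc16a1 encodes MCT1, the lactate transporter of endothelium, oligodendrocytes and astrocytes (ENSMUSG00000032902, chromosome 3, 104638668 to 104658462, plus strand). Its values were 59.1, 52.3, 52.5 and 44.0 CPM in wild-type PBS and 36.2, 41.7, 33.7 and 41.7 CPM in wild-type LPS. Knockout libraries held 38.1, 39.0, 48.0 and 42.8 CPM with PBS and 44.4, 44.9, 46.2 and 48.4 CPM with LPS. Here wild-type PBS was the high group, wild-type LPS replicate 1 was as low as the other LPS libraries, and both knockout group means (42.0 and 46.0 CPM) lay between the wild-type means of 38.3 and 52.0 CPM. Slc16a1 was 1.35-fold lower after LPS in wild type (log2 fold change -0.44 ± 0.10; adjusted p = 0.0125), and the call was lost without LPS replicate 3 (adjusted p = 0.0544). With LPS its log2 fold change between knockout and wild type was 0.26, which did not pass (adjusted p = 0.0843). With PBS the same contrast gave -0.31, which did not pass either (adjusted p = 0.918, edgeR over all genes).

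Markers of cells known to carry MCT1 also moved, though not in every library. Of 8 oligodendrocyte markers, 5 fell after LPS in wild type, Mog, Mag, Cnp and Ermn among them. Over all genes 3.85% were called lower and 4.72% higher. The list summed to 6794 to 8966 CPM in wild-type PBS and to 4278, 8137, 4712 and 3410 CPM in wild-type LPS. The LPS library at 8137 CPM lay within the PBS range. Knockout libraries held 6557 to 8303 CPM over both treatments. Of 8 endothelial markers, Ly6c1 rose and Flt1 and Tek fell, and the sum went from 211 to 262 CPM in wild-type PBS to 197, 290, 249 and 296 CPM in wild-type LPS, with 169 to 209 CPM in the knockout. Of 8 astrocyte markers, Gfap and Aldh1l1 rose and S100b fell, and the sum was 3513 to 4017 CPM in wild-type PBS, then 3844, 4817, 4388 and 4694 CPM in wild-type LPS, with 3730 to 4203 CPM in the knockout. A list of 10 genes taken as markers of thalamus and cerebellum, Neurod2 and Calb2 among them, summed to 358, 860, 884 and 303 CPM in wild-type PBS. It summed to 262 to 380 CPM in wild-type LPS, 310 to 825 CPM in knockout PBS and 355 to 661 CPM in knockout LPS. Whether hippocampal cells also express these genes was not tested, so the sum does not measure tissue outside the hippocampus alone. The part of these cells and tissues in the fall of Slc16a1 was not tested.

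The other transporters did not pass. Slc2a1, the glucose transporter GLUT1 of the blood-brain barrier and astrocytes (ENSMUSG00000028645, chromosome 4, 119108711 to 119137983, plus strand), stood at 93.1, 79.0, 80.2 and 69.3 CPM in wild-type PBS and at 59.4, 103, 79.3 and 86.5 CPM in wild-type LPS. Knockout libraries held 81.9, 53.7, 63.0 and 73.2 CPM with PBS and 68.7, 77.6, 75.1 and 71.6 CPM with LPS. All 4 groups overlapped, with wild-type LPS the widest, and the wild-type log2 difference was 0.03 (95% interval -0.26 to 0.32). Slc2a3, the neuronal transporter GLUT3, differed by 0.11 (95% interval -0.07 to 0.28). Slc16a3 (MCT4, a lactate exporter) was measured at 1.73 to 4.61 CPM and differed by 0.53 ± 0.26 in wild type (adjusted p = 0.226). Slc16a7 (MCT2, the neuronal lactate importer) stood at 51.1, 28.8, 30.2 and 26.5 CPM in wild-type LPS against 39.9 to 44.3 CPM in wild-type PBS. Its replicate 1 was above every PBS library and the other 3 below all of them, and the log2 difference was -0.27 (adjusted p = 0.348) with replicate 1 and -0.53 (adjusted p = 0.00219) without it.

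In the upper trunk none of the 7 members passed in either comparison: Gpi1 (glucose phosphate isomerase), the phosphofructokinases Pfkm, Pfkl and Pfkp, the aldolases Aldoa and Aldoc, and Tpi1 (triose phosphate isomerase) had wild-type log2 fold changes from -0.17 to 0.09. Pfkp again set wild-type LPS replicate 1 (383 CPM) against the other 3 (208, 291 and 241 CPM), with 290 to 334 CPM in wild-type PBS. Without that library Pfkp was lower after LPS by a log2 fold change of -0.35 (adjusted p = 0.0169). Aldoa had a second row under another identifier with 0.522 to 1.32 CPM, against 1499 to 1722 CPM in the main row, and it was not used.

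The bifunctional enzymes Pfkfb2, Pfkfb3 and Pfkfb4, which set the activator of phosphofructokinase, did not pass. Pfkfb3, the most kinase-active form and a known target of inflammatory and hypoxic signals (ENSMUSG00000026773, chromosome 2, 11471433 to 11554077, minus strand), stood at 46.5, 47.9, 46.2 and 42.0 CPM in wild-type PBS and at 34.5, 55.5, 43.7 and 46.0 CPM in wild-type LPS. Knockout libraries held 46.1, 39.5, 46.8 and 41.0 CPM with PBS and 45.6, 42.6, 42.6 and 51.0 CPM with LPS. The LPS libraries of wild type straddled the PBS range, and the log2 difference was -0.02 (95% interval -0.24 to 0.20).

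Ldha, the lactate dehydrogenase subunit typical of glycolytic cells (ENSMUSG00000063229, chromosome 7, 46841475 to 46855627, plus strand), held 239, 191, 203 and 228 CPM in wild-type PBS and 238, 168, 197 and 171 CPM in wild-type LPS. Knockout libraries held 208, 188, 202 and 211 CPM with PBS and 207, 200, 225 and 215 CPM with LPS. Wild-type LPS replicate 1 was again with the higher PBS libraries, and 2 of the other 3 were below all of PBS. The log2 difference was -0.15 (95% interval -0.35 to 0.04; adjusted p = 0.368), and without replicate 1 it was -0.27 (adjusted p = 0.0272). Ldhb differed by -0.16 (95% interval -0.35 to 0.04). Per kb of exon union, the Ldha share of the lactate dehydrogenase level was 24.8% ± 3.76 in wild-type PBS and 24.6% ± 1.16 in wild-type LPS, a difference smaller than the spread between libraries.

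**Figure D5:**
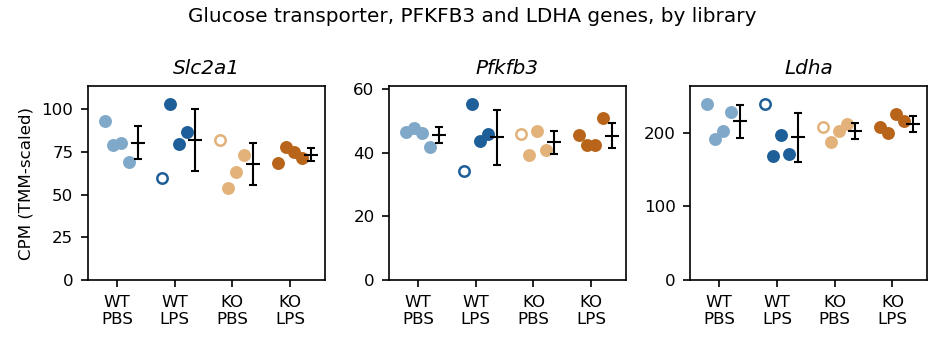
TMM-scaled CPM of Slc2a1, Pfkfb3 and Ldha, 1 point per library, with black bars for mean ± SD of 4 libraries and open circles for wild-type LPS replicate 1 and knockout PBS replicate 1. The groups overlap in all 3 genes, and for Slc2a1 and Pfkfb3 the open circle of wild-type LPS is the lowest point of its group (59.4 and 34.5 CPM).

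The 4 genes that bring pyruvate to oxidation did not pass either. Mpc1 and Mpc2 form the mitochondrial pyruvate carrier, and Pdha1 and Pdhb the first enzyme of the pyruvate dehydrogenase complex. Their wild-type log2 fold changes ran from -0.14 (Mpc2) to 0.00 (Pdha1), and for Pdha1, the substrate of the kinases above, the 95% interval was -0.09 to 0.09.

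Within the knockout, LPS against PBS called 0 members, and so did edgeR over all genes (0%); at an unadjusted p under 0.05 the count was 0 members, against 6.88% of all genes, and DESeq2 and limma-voom also called 0 members. The smallest adjusted p was 0.703. Hk2 had a log2 fold change of -0.31 (95% interval -0.74 to 0.12) and Pdk4 of 0.13 (-0.39 to 0.64). In wild type the estimates were 0.90 (0.47 to 1.33) for Hk2 and 1.04 (0.52 to 1.55) for Pdk4. The difference between these responses was tested as the interaction below, which called neither gene. For Pgd the interval was -0.19 to 0.09, for Pdk2 -0.29 to 0.02 and for Pdk3 -0.09 to 0.21. These libraries showed no inflammatory signature, as given above. Between genotypes under PBS 0 members passed, against 0.0369% of all genes; 1 member (Slc16a1) had an unadjusted p under 0.05, against 5.17% of all genes, and DESeq2 and limma-voom called 0 members. The library labelled knockout PBS replicate 1 is part of this group.

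The difference in LPS response between genotypes, tested as an interaction, called 0 of 36 members by edgeR against 1.15% of all genes, with 10 members at an unadjusted p under 0.05 beside 21.6% of all genes. The smallest adjusted p was that of Slc16a1 (log2 difference of responses 0.57 ± 0.13; adjusted p = 0.0514). It was followed by Pgd (-0.42, adjusted p = 0.0557), Pdk2 (-0.46, adjusted p = 0.0585), Hk2 (-1.21, adjusted p = 0.061), Hk3 (-1.42, adjusted p = 0.0614) and Pdk3 (0.40, adjusted p = 0.0633). DESeq2 called these 6, limma-voom with quality weights called 14 members, and edgeR called 12 without wild-type LPS replicate 1 and 5 without wild-type PBS replicate 4. For Pdk4 (-0.91, adjusted p = 0.173) and Eno1 (0.26, adjusted p = 0.14) the difference between the genotypes did not pass. Because no knockout LPS library showed the inflammatory signature, genotype and the signature cannot be told apart in the interaction either.

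Around the members, 90 tested genes of 8 related lists gave 6 calls higher in the knockout with LPS and 8 lower, where 4.61% of all genes were higher and 7.28% lower. After LPS in wild type 5 were higher and 8 lower, where all genes gave 4.72% and 3.85%. Both comparisons share the wild-type LPS libraries. Among other glycolytic isozymes, Eno3, the muscle enolase, was lower in the knockout (-0.73, adjusted p = 0.0105), and its log2 fold change after LPS in wild type was 0.62. Among 9 further transport genes, Slc2a5, the microglial fructose transporter, was higher in the knockout (1.49, adjusted p = 0.0319), as was Bsg (0.26, adjusted p = 0.0427), the chaperone that brings MCT1 to the membrane, and Slc2a4, the insulin-regulated GLUT4, was lower (-1.37, adjusted p = 0.0363). After LPS in wild type these stood at -1.54, -0.43 and 1.38.

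Of 13 glycogen genes, Ugp2 was higher in the knockout under LPS (0.45, adjusted p = 0.0111) and Pgm2 lower (-0.44, adjusted p = 0.0497). Of the 7 remaining pentose phosphate genes, H6pd, which makes NADPH in the endoplasmic reticulum, was lower (-0.49, adjusted p = 0.0198) and Rpe higher (0.35, adjusted p = 0.0199). Among 16 citric acid cycle genes 1 passed, Sucla2 (0.17, adjusted p = 0.0459), and among the 7 other pyruvate dehydrogenase genes 0 passed. Of 9 NADH shuttle genes Slc25a12, the neuronal aspartate-glutamate carrier (-0.22, adjusted p = 0.0145), and Gpd1 (-0.45, adjusted p = 0.046) were lower. Of 20 regulators, Myc was lower (-0.77, adjusted p = 0.0126) and Vegfa, a target of hypoxia-inducible factors, higher (0.62, adjusted p = 0.0437); in wild type after LPS Vegfa stood at -0.88. List medians in the comparison of genotypes under LPS lay between -0.06 and 0.13 on the log2 scale, beside 0.00 over all genes.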

How the data were processed

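The authors' deposited table holds a value per gene and library, all of them whole and read here as an estimated count; the submitters' processing notes name Salmon 1.9.0, MultiQC 1.13, DESeq2 and DESeq, without the part each played. Libraries were made with a NEBNext Ultra kit, per the labels' protocols; the genome build and annotation are not given in the sources used here. Symbols, positions and exon lengths came from GENCODE M21 (GRCm38), in which 120 identifiers (0.106% of the counts) had no name. Genes in the table summed to at least 10 counts. filterByExpr of edgeR 4.0.16 (R 4.3.3) removed 3180 genes and kept 99.97% of the counts. Libraries were scaled by TMM, and a mean for each of 4 groups was fitted over all 16 libraries; 4 contrasts and the interaction were tested by quasi-likelihood F tests with Benjamini-Hochberg adjustment over 16269 genes at 0.05. A log2 fold change over the root of its F gives the SE. The 95% intervals were built on this SE with the quantile of a normal distribution, so they are narrower than the F tests imply. For Pfkfb2 after LPS in wild type the interval was 0.01 to 0.20, yet the F test gave an unadjusted p of 0.053. CPM are TMM-scaled. Reads without molecular identifiers are not independent molecules; errors here come from the spread between libraries (biological coefficient of variation 0.177) and not from depth.

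Members and lists were chosen with earlier results of these data known. All 36 members are named; values in every library are given for members called in any comparison and for Slc2a1, Hk2, Pfkfb3, Ldha, Slc16a1 and Pdk4, and of each related list up to 3 called genes are named in the comparison with most calls. Slc16a3, Slc16a7, Pfkp, Pgk1 and other members given with values outside this rule were picked after their values were seen. Sex was read from Ddx3y and Eif2s3y, with a summed CPM over 1; Xist was not used here. Alternatives were limma-voom with quality weights (limma 3.58.1), DESeq2 1.42.0, RLE scaling, no filter, CPM of at least 1 in 4 libraries, 1 surrogate variable (sva 3.50.0), a sex covariate, the replicate number as a block, only the 8 libraries compared, wild-type LPS 1 and knockout PBS 1 set aside, wild-type PBS 2 and 3 (the closest pair within a group) summed, and each library left out. Fitting only libraries lacking Y-linked transcripts was chosen after seeing the data. The edgeR fit was tested on simulated data. Some genes of the related and marker lists are not reported here by name.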

Additional observations from a re-analysis of the deposited data

Results flagged for a closer look

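In each of 144 sets of 4 libraries (36 members in 4 groups), a library was singled out when its gap to the nearest of the others, over the range of the 4, exceeded the 95% critical value of Dixon's test. Chance marks about 1 in 20 such sets, or 7.2 of 144, and 7 were marked. In wild-type PBS, replicate 4 was low for Pfkm, the muscle-type phosphofructokinase (338 CPM against 365 to 368 in the others), and high for Pfkl, the liver type (232 CPM against 179 to 185). For Aldoc, the astrocytic aldolase, knockout LPS replicate 2 was high at 683 CPM, against 599 to 607. Pfkfb4 was high in knockout PBS replicate 2, at 15.4 CPM against 13.5 to 13.6. Slc16a7, which encodes MCT2, gave 3 of the 7 marks: it was high in wild-type PBS replicate 3 (44.3 CPM against 39.9 to 40.4) and in wild-type LPS replicate 1 (51.1 CPM against 26.5 to 30.2), and low in knockout PBS replicate 1 (36.4 CPM against 42.6 to 43.6). The last 2 libraries are wild-type LPS replicate 1, which lacked the inflammatory signature, and knockout PBS replicate 1, with Tspo at a wild-type level. Knockout LPS replicate 2, marked for Aldoc, lacked the signature too, as did its whole group.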

How the results depend on the processing

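None of the 14 member fold changes that passed reversed its sign in the 392 values under other settings; 332 kept the call and 60 lost it. Members called after LPS in wild type (8) numbered 17 with limma-voom, 14 with only libraries lacking Y-linked transcripts, 15 with wild-type LPS 1 and knockout PBS 1 set aside, 4 with wild-type PBS 2 and 3 summed, 0 in a fit of the 8 libraries compared, and 2 to 15 when single libraries were left out. Between genotypes under LPS (6) the counts were 13 with limma-voom, 13 with the same pair set aside, 2 with the 8 libraries alone, and 3 to 13 leaving out single libraries. For the interaction (0) they were 6 with DESeq2, 14 with limma-voom, 9 lacking Y-linked transcripts, 12 with the pair set aside, and 0 to 12 leaving out single libraries. No setting called a member in the knockout after LPS or between genotypes under PBS. Over all genes, wild type after LPS (1394) gave 2096 with DESeq2, 4684 with limma-voom, 3832 lacking Y-linked transcripts, 3271 with the pair set aside, 670 with the 2 libraries summed, 0 with the 8 alone, and 538 to 3380 leaving out single libraries. Genotypes under LPS (1935) gave 4073 with limma-voom, 3907 with the pair set aside, 438 with the 8 alone, and 858 to 4005 leaving out single libraries. Genotypes under PBS (6) gave 17 with DESeq2, 308 with limma-voom, 19 lacking Y-linked transcripts, 1 with the 2 summed, and 1 to 9 leaving out single libraries. Knockout after LPS (0) gave 3 with DESeq2, and 0 to 1 leaving out single libraries. The interaction (187) gave 63 with RLE, 1281 with DESeq2, 4029 with limma-voom, 39 with no filter, 42 with the CPM filter, 40 with sex, 5 with the surrogate variable, 1820 lacking Y-linked transcripts, 2400 with the pair set aside, 0 with the 2 summed, and 0 to 2655 leaving out single libraries. The cause of these shifts was not tested, beyond that some settings hold fewer libraries. With the replicate number as a block, 6 members passed after LPS in wild type (Eno1 and Pdk4 were lost) and 6 between genotypes under LPS, and all-gene counts were 1069, 1619, 3 for genotypes under PBS and 0 for the interaction. The numbers do not appear to pair the libraries: deviations of same-numbered libraries correlated at -0.22 to 0.36, and in each of 4 comparisons 1 of 4 numbers correlated best with itself. Of the members, depth limits Hk3 most (30 to 157 counts per library).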
